A study of Mus musculus with 16 samples.

Results

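The 42 collagen genes described here are the genes of the array whose current symbol, or symbol in the scanner files, has the form Col, a type number, a and a chain number. Where several probes measured a gene, the brightest by mean processed signal was taken, so that 42 genes were followed out of 27960 genes or unnamed probes on the array, with 80 of its 41174 probes behind them. They were split into 11 fibrillar collagens, 8 basement-membrane collagens and 23 other collagens. The study measured RNA of whole ovaries from year-old mice on 16 one-colour Agilent arrays, 4 per group, to examine what each estrogen receptor does in granulosa cell transdifferentiation of the aged ovary. Ex3aERKO ovaries came from mice with a knockout of estrogen receptor alpha (ERα, gene Esr1), Ex3bERKO ovaries from mice with a knockout of estrogen receptor beta (ERβ, gene Esr2), and Ex3abERKO ovaries from mice lacking both receptors. The control ovaries carried a single allele of each receptor, so no group had the full set of receptor alleles. The labels give neither the strain nor the construct, and no Cre driver or transgene is named. Whether each array of a group stands for an animal of its own is not stated either. A p-value from limma therefore measures only the spread among samples within groups, pooled over all 4 groups, technical or not.

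Collagens are secreted proteins of 3 chains wound into a triple helix, and they make up most of the extracellular matrix. Fibrillar collagens assemble into the rope-like fibrils of connective tissue, such as the ovarian stroma and the theca. Basement-membrane collagens, above all type IV, form sheets beneath epithelia, around follicles and around blood vessels. In most tissues the sheet is built from the chains of Col4a1 and Col4a2, while the chains of Col4a3, Col4a4, Col4a5 and Col4a6 are restricted to particular basement membranes. The remaining collagens decorate fibrils, form beaded filaments or hexagonal networks, or span the cell membrane.

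A level is given as the log2 of a probe's processed signal over the 75th percentile of its array, so that 0 is the 75th percentile. Levels of different probes are not set against each other. Differences are log2 differences between group means ± SE from limma with 4 arrays per group. A gene was counted as changed where the Benjamini-Hochberg adjusted p over 24587 genes and unnamed probes was under 0.05. All 42 collagen genes passed the filter on dim probes, and 37 of them were well above background on every array. The exceptions were Col19a1 and Col10a1 (11 arrays each), Col9a1 (9 arrays), Col6a6 (15 arrays) and Col28a1 (5 arrays). Every comparison with control used the same 4 control arrays, so values for the 3 knockouts stand side by side here without a measure of their likeness.

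The arrays were of similar brightness, with a 75th percentile of 1211 to 1806 signal units and 80.4 to 87.6% of spots well above background. The Esr1 probe averaged -2.48 ± 0.80 in Ex3aERKO, -0.51 ± 0.60 in Ex3bERKO, -1.73 ± 0.48 in Ex3abERKO and -0.10 ± 0.22 in control (SD, n = 4), and the Esr2 probe averaged -0.20 ± 1.24, 0.32 ± 0.74, -2.07 ± 0.53 and -0.11 ± 0.30 in the same groups. The Esr2 level in Ex3bERKO was not below that in control, but the deleted stretch of each gene is not given in the sources used here, and a probe outside it would check nothing. In markers of liver, oviduct or blood, 3 arrays stood apart. Ex3aERKO 2 had a summed level of liver markers (the sum of their signals, each over the array's 75th percentile) of 111.4, against 0.103 to 1.11 on the other arrays. Ex3abERKO 2 had a summed level of oviduct markers of 51.3, against 0.405 to 3.98 on the others. Control 4 had 371.4 for erythroid markers, against 26.7 to 46.1 on the other controls. Knockout arrays also reached high erythroid levels, with maxima of 285.3 (Ex3abERKO), 241.9 (Ex3aERKO) and 126 (Ex3bERKO). Control 4 thus stood apart among the controls, and less so in the whole series. Luteal markers, of the corpus luteum, also varied within groups, with a summed level of 117.4 in Ex3bERKO 2, against 13.7 to 16.5 in the rest of its group, and 210 in control 1, against 36.2 to 53.1 in the other controls. Counts are therefore given with all arrays, without the 3 that stood apart, and without these 2 arrays high in luteal markers.

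Among the collagens the results turn on, Col4a1 and Col4a2 lie head to head, as do Col4a6 and Col4a5, so the windows around their starts are shown first. Each window runs from 250 bases before to 50 bases after the start, as RefSeq gives it for GRCm38.p6, 5′ to 3′ along the gene. Capitals mark the GC box (GGGCGG on either strand) and the CCAAT box (CCAAT on either strand). Col4a1 (chr8:11312777-11313076, minus strand) and Col4a2 (chr8:11312555-11312854, plus strand) overlap by 78 bases, where one is the reverse complement of the other. The windows of Col4a6 (chrX:141474027-141474326, minus strand) and Col4a5 (chrX:141475169-141475468, plus strand) do not overlap.
Col4a1: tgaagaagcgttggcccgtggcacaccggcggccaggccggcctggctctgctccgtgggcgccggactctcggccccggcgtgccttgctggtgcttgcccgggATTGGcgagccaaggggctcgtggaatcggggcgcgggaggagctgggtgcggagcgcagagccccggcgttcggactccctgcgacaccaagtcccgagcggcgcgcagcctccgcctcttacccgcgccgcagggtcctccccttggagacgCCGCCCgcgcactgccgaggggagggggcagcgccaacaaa
Col4a2: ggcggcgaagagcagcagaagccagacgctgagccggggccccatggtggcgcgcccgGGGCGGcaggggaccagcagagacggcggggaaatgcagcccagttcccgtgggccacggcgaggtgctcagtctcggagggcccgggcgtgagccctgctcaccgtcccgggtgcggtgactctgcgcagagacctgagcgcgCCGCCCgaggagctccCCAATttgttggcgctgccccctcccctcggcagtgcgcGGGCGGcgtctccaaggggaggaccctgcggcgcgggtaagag
Col4a6: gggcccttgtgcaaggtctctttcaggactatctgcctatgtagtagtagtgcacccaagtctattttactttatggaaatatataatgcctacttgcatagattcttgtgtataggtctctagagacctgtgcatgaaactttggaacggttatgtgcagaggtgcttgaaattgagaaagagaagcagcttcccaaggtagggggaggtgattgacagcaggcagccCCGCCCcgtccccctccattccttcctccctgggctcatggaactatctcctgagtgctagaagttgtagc
Col4a5: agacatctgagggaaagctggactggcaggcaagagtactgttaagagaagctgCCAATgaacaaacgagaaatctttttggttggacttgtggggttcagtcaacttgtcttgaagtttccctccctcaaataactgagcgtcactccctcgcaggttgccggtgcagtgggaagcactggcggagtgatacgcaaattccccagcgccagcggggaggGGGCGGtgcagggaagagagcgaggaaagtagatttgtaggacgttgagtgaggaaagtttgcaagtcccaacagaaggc
The chains of type VIII collagen lie on different chromosomes, Col8a1 at chr16:57754688-57754987 on the minus strand and Col8a2 at chr4:126286544-126286843 on the plus strand. Their windows are shown because these genes had the largest increases among the 42 collagens in Ex3abERKO. Each holds 4 GC boxes, with overlapping matches counted separately.
Col8a1: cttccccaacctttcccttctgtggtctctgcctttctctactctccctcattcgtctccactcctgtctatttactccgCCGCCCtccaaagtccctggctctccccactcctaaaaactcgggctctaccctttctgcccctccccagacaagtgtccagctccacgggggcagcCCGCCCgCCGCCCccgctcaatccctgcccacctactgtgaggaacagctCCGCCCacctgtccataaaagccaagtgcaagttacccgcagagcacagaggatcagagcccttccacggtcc
Col8a2: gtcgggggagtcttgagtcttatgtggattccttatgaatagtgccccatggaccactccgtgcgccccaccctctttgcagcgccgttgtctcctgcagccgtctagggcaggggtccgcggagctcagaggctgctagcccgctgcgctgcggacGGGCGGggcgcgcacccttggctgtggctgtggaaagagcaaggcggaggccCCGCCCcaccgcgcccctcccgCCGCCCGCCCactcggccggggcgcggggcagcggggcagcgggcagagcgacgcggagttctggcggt
RefSeq windows were found for 33 of the 42 collagen genes, 36 windows in all. A GC box was present in 58.3% of them (21 of 36), against 35.7% of all 32851 windows of the same length. A CCAAT box was present in 33.3% (12 of 36), against 37.4% of all windows. The palindromic estrogen response element, GGTCA and TGACC with any 3 bases between, was in 0 of the 36 windows, against 0.07% of all windows (23). A match is a string of letters and no evidence of binding, and a window without one says only that these letters are not in it.

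More collagen genes passed the test in Ex3abERKO ovaries than in Ex3aERKO ovaries, and fewest did in Ex3bERKO ovaries. In Ex3abERKO 16 of the 42 collagens changed (38.1%), 9 higher and 7 lower, where 22.3% of all genes and probes tested changed, 10.7% higher and 11.6% lower. In Ex3aERKO 9 changed (21.4%), 5 higher and 4 lower, where 7.94% of all did, 3.79% higher and 4.15% lower. In Ex3bERKO 2 changed (4.76%), both higher, where 1.03% of all did, 0.395% higher and 0.634% lower. At an unadjusted p under 0.05 the counts were 23 in Ex3abERKO, 19 in Ex3aERKO and 9 in Ex3bERKO. No share over all genes and probes was computed at that threshold. Without the 3 arrays that stood apart, 11 collagens changed in Ex3abERKO, 4 in Ex3aERKO and 0 in Ex3bERKO. Of all 24587 genes and probes 3257, 561 and 63 changed then, against 5482, 1951 and 253 with all arrays. Without the 2 arrays high in luteal markers the counts were 15, 10 and 0, against 4173, 1399 and 106 over all genes and probes. The collagens called included 14 of the 16 and 7 of the 9. The calls of Col4a1 and Col9a3 in Ex3abERKO, of Col5a3 and Col6a3 in Ex3aERKO, and of Col4a3 and Col4a6 in Ex3bERKO were lost there, at adjusted p = 0.0593 to 0.187. On every slide that held both groups, each called collagen differed from control in the direction of its overall difference, on 4 slides for Ex3aERKO and on 3 for each of the other knockouts. These genes were called on the same arrays, so their agreement across slides is a description and no separate test. The ovaries were whole, so fewer cells of a type and less RNA per cell cannot be told apart in any of these values.

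By class, the median log2 difference of the 8 basement-membrane collagens was 1.24 in Ex3aERKO, 0.40 in Ex3bERKO and 1.01 in Ex3abERKO, beside -0.08, 0.01 and -0.11 over all genes and probes tested. With the second brightest probe of each gene, it was 0.46 in Ex3aERKO and 0.25 in Ex3abERKO, and in Ex3bERKO it turned to -0.01. The median of the 11 fibrillar collagens was -0.37 in Ex3aERKO, -0.22 in Ex3bERKO and 0.39 in Ex3abERKO, the last turning to -0.09 with the second brightest probe. On single arrays the median of these genes minus their control means ran from -0.93 to -0.07 in Ex3aERKO and -0.29 to 0.41 in Ex3bERKO. It ran from -0.61 to 1.41 in Ex3abERKO, so these arrays had no common direction, and from -0.33 to 0.15 in control. Leaving out single arrays, the Ex3abERKO median ranged from 0.03 to 0.73. The median of the 23 other collagens lay near that of all genes, at -0.28, 0.18 and 0.09, and its sign depended on the processing in all 3 comparisons. In the basement-membrane class 4 genes rose and 0 fell in Ex3aERKO, 2 rose in Ex3bERKO, and 4 rose and 1 fell in Ex3abERKO. Fibrillar collagens gave 0 higher and 1 lower in Ex3aERKO, none in Ex3bERKO, and 1 higher and 1 lower in Ex3abERKO. Other collagens gave 1 higher and 3 lower in Ex3aERKO, none in Ex3bERKO, and 4 higher and 5 lower in Ex3abERKO.

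**Figure D1:**
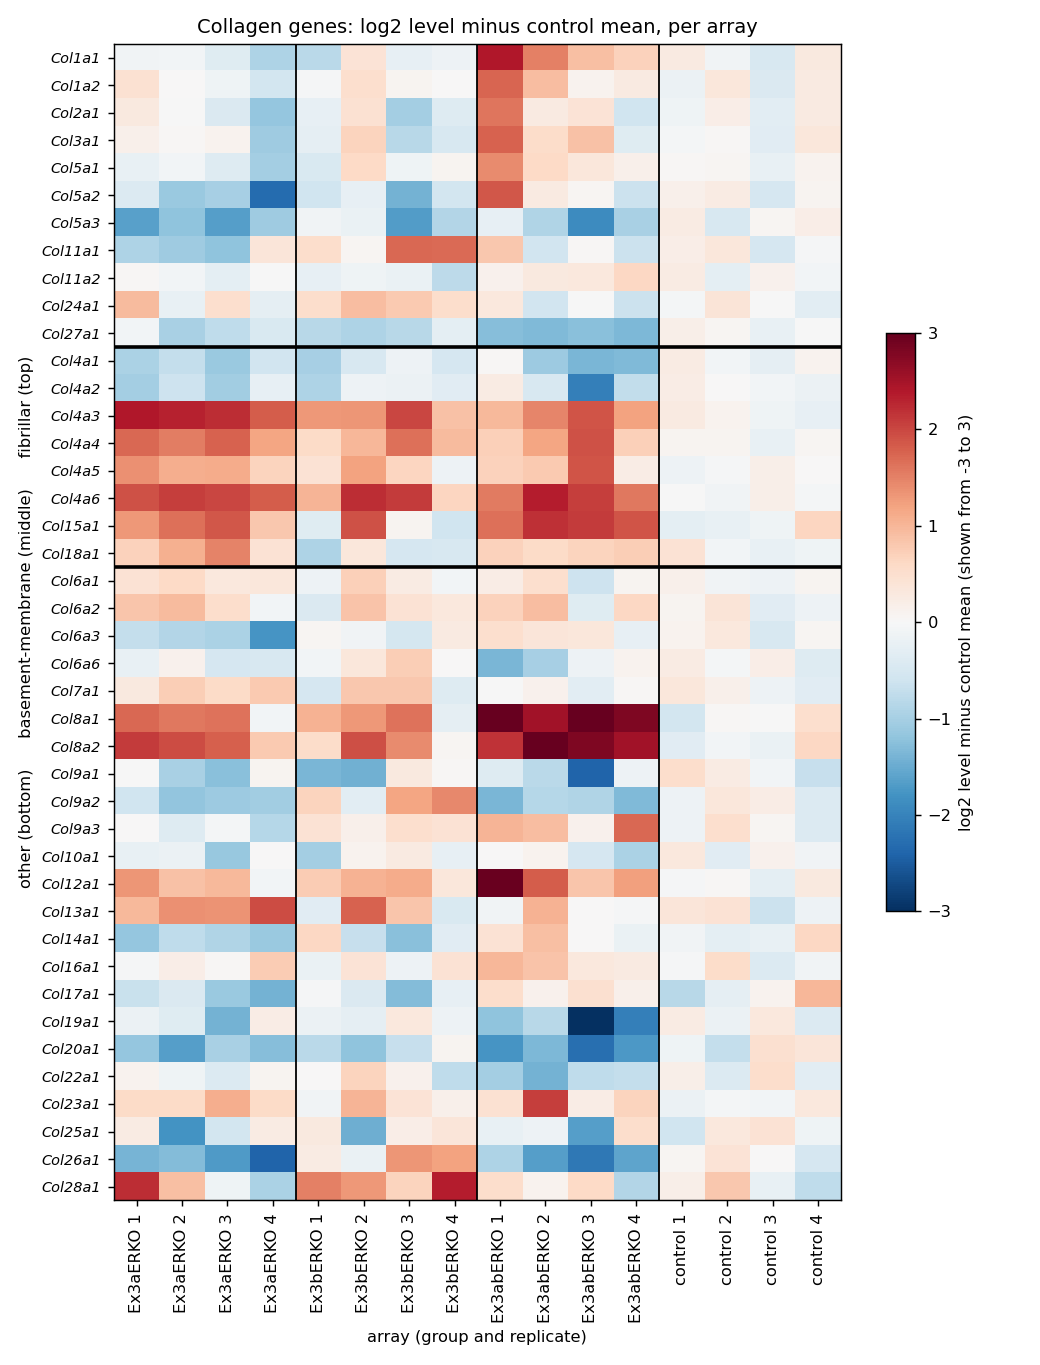
Log2 level of each of the 42 collagen genes minus its mean in control (colour, shown from -3 to 3), with genes in rows by class and the 16 arrays in columns by group. The rows of Col4a3, Col4a4 and Col4a6 are red across all Ex3aERKO and Ex3abERKO arrays, and Col8a1 and Col8a2 are darkest on the 4 Ex3abERKO arrays.

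**Figure D2:**
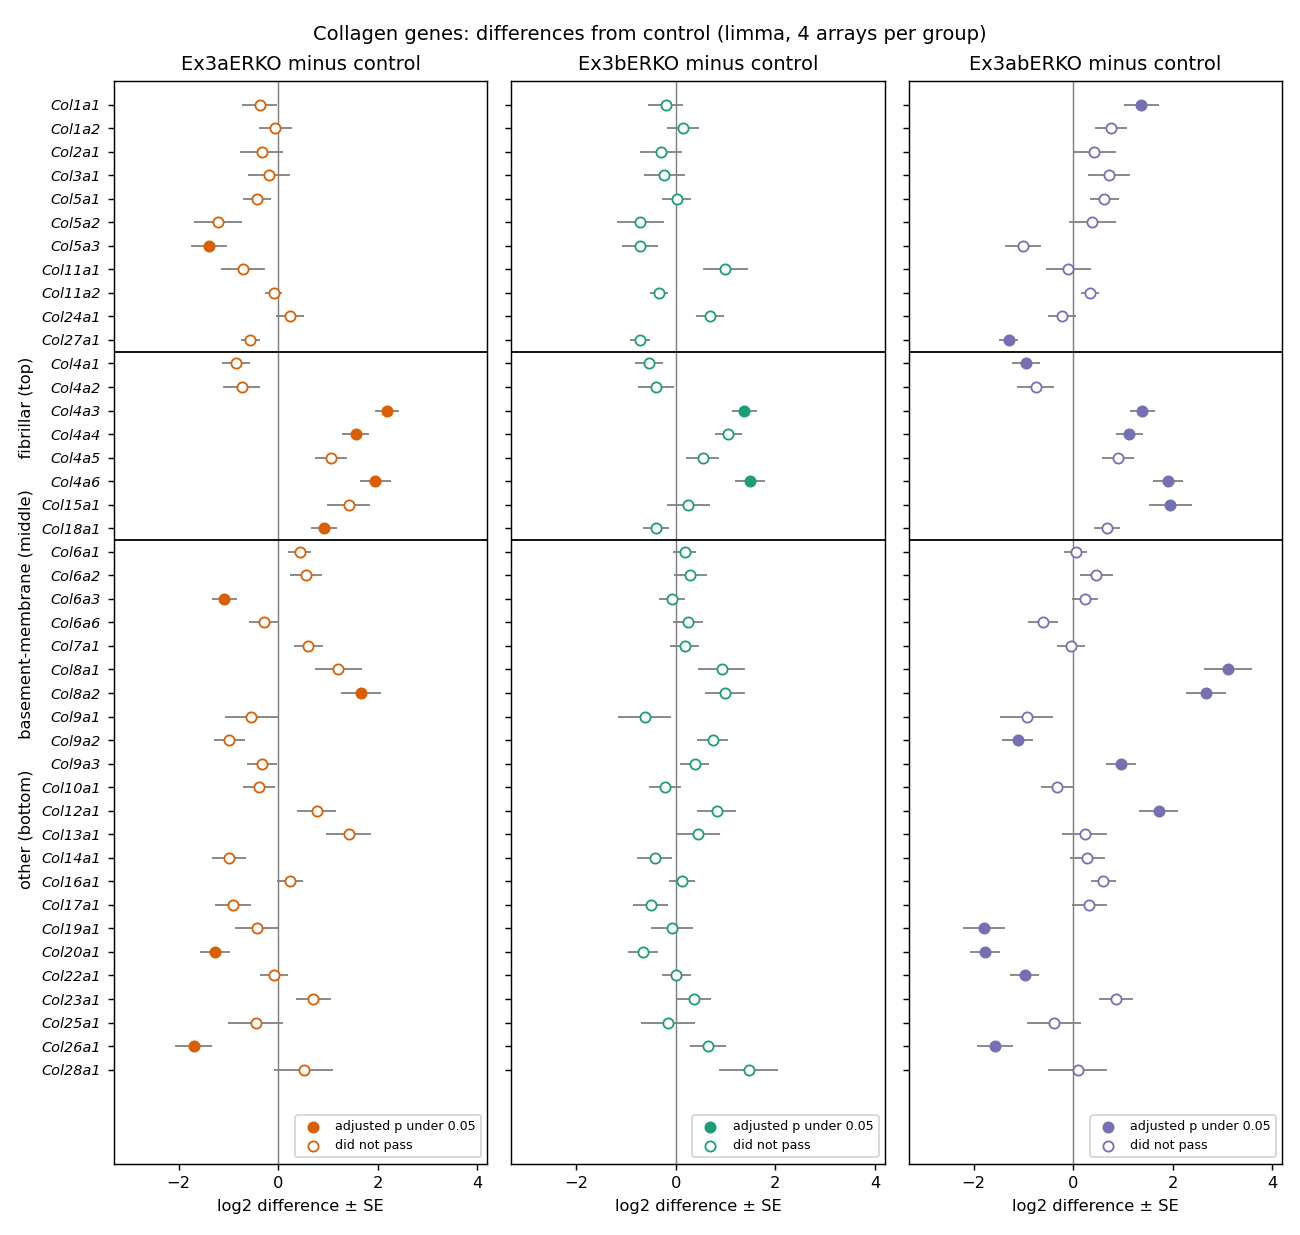
Log2 difference from control (horizontal axis, ± SE) for each collagen gene in Ex3aERKO, Ex3bERKO and Ex3abERKO, with filled points for genes at an adjusted p under 0.05. Filled points number 9 in Ex3aERKO, 2 in Ex3bERKO and 16 in Ex3abERKO, and those of the basement-membrane class lie to the right of 0 except Col4a1 in Ex3abERKO.

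The restricted type IV chains Col4a3, Col4a4 and Col4a6 rose in Ex3aERKO and Ex3abERKO, by up to 4.54-fold, and Col4a3 and Col4a6 also in Ex3bERKO. Of the general chains, Col4a1 fell in Ex3abERKO, and the other differences of Col4a1 and Col4a2 were negative but did not pass the test. Col4a3 encodes a chain known from the basement membrane of the kidney glomerulus, and its probe lies at chr1:82929885-82929944, plus strand (mm7, as all probe positions here). Its level was -1.63, -1.73, -1.80 and -2.21 on the 4 Ex3aERKO arrays, -2.72, -2.70, -2.01 and -3.14 in Ex3bERKO, -3.06, -2.55, -2.13 and -2.82 in Ex3abERKO, and -3.75, -3.93, -4.14 and -4.28 in control. Every knockout array lay above every control array. The difference was 2.18 ± 0.25 in Ex3aERKO (4.54-fold, adjusted p = 0.000229), 1.38 ± 0.25 in Ex3bERKO (2.60-fold, adjusted p = 0.0145) and 1.39 ± 0.25 in Ex3abERKO (2.61-fold, adjusted p = 0.00129). A further Col4a3 probe gave 2.09, 1.31 and 1.35 for the same comparisons, while a dim one gave -0.50, 0.37 and -0.79. The Ex3bERKO call was lost without control 3 or control 4 (adjusted p = 0.0554 and 0.0592) and without the 3 arrays that stood apart (0.131).

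Col4a4, the chain that joins with Col4a3 and Col4a5 in one heterotrimer, was read by a probe at chr1:82657164-82657223, minus strand. The Col4a4 levels were 2.06, 1.86, 2.11 and 1.50 in Ex3aERKO, 0.91, 1.34, 1.99 and 1.29 in Ex3bERKO, 1.04, 1.52, 2.25 and 1.03 in Ex3abERKO, and 0.42, 0.40, 0.12 and 0.38 in control. Again no knockout array overlapped control. Col4a4 rose in Ex3aERKO by 1.55 ± 0.27 (2.93-fold, adjusted p = 0.00321) and in Ex3abERKO by 1.13 ± 0.27 (2.19-fold, adjusted p = 0.00864), and in Ex3bERKO the difference was 1.05 ± 0.27 (adjusted p = 0.0956). The other Col4a4 probe, which was matched through its accession, differed by only 0.09, 0.08 and 0.20, and without the 3 arrays that stood apart the Ex3abERKO call was lost (1.13, adjusted p = 0.0571).

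Col4a6 encodes a chain that assembles with Col4a5 in another restricted heterotrimer, known from smooth muscle and some epithelia, and its probe lies at chrX:135829764-135829823, minus strand. Its levels on the Ex3aERKO arrays were 1.67, 1.84, 1.76 and 1.59, against 0.77, 1.97, 1.87 and 0.41 in Ex3bERKO, 1.33, 2.11, 1.84 and 1.34 in Ex3abERKO, and -0.25, -0.34, -0.07 and -0.29 in control. Each knockout lay wholly above control, and Ex3bERKO was the most spread, with replicates 2 and 3 about as high as in Ex3aERKO and replicates 1 and 4 lower. The gene rose by 1.95 ± 0.30 in Ex3aERKO (3.87-fold, adjusted p = 0.00155), by 1.49 ± 0.30 in Ex3bERKO (2.82-fold, adjusted p = 0.0285) and by 1.89 ± 0.30 in Ex3abERKO (3.72-fold, adjusted p = 0.000619). Of its other probes, one gave 2.01, 1.50 and 1.28, and the other gave -0.13, 0.10 and -0.10, so not all Col4a6 probes showed the change. The Ex3bERKO call was lost without control 1, control 3, control 4, Ex3bERKO 2 or Ex3bERKO 3 (adjusted p = 0.0715 to 0.104).

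The partner Col4a5 was read at chrX:136352769-136352828, plus strand, and did not pass the test in any knockout. Its levels were -0.34, -0.61, -0.60 and -1.05 in Ex3aERKO, -1.28, -0.50, -1.06 and -1.86 in Ex3bERKO, -1.02, -0.94, 0.17 and -1.49 in Ex3abERKO, and -1.86, -1.75, -1.55 and -1.69 in control. Ex3aERKO and Ex3abERKO lay above control without overlap, and Ex3bERKO overlapped it. The differences were 1.06 ± 0.32 in Ex3aERKO (adjusted p = 0.0593), 0.54 in Ex3bERKO (0.682) and 0.90 in Ex3abERKO (0.0601). The difference from control of Col4a6 exceeded that of Col4a5 by 0.89 in Ex3aERKO, 0.95 in Ex3bERKO and 1.00 in Ex3abERKO. In each knockout that was p = 0.0286 in a two-sided exact permutation test over arrays, the smallest that 4 against 4 allows, and 0.107 after adjustment over the 15 chain comparisons made.

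The general chains Col4a1 and Col4a2 start from the shared stretch shown above and are built into nearly every basement membrane. Col4a1, at chr8:11167020-11167079 on the minus strand, had levels of 1.81, 2.04, 1.64 and 2.18 in Ex3aERKO, 1.77, 2.28, 2.60 and 2.25 in Ex3bERKO, 2.79, 1.68, 1.38 and 1.43 in Ex3abERKO, and 3.01, 2.68, 2.49 and 2.86 in control. All Ex3aERKO arrays and 3 of the 4 Ex3abERKO arrays lay below every control array. Col4a1 fell in Ex3abERKO by 0.94 ± 0.28 on the log2 scale (1.92-fold lower, adjusted p = 0.0258), and the differences were -0.84 ± 0.28 in Ex3aERKO (adjusted p = 0.0832) and -0.53 in Ex3bERKO (0.589). The Ex3abERKO call was lost without control 1, control 4, or Ex3abERKO 2, 3 or 4 (adjusted p = 0.0576 to 0.0739), and Ex3aERKO passed without Ex3abERKO 1 (0.0165).

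Col4a2, at chr8:11416851-11416910 on the plus strand, had levels of 1.48, 1.88, 1.46 and 2.26 in Ex3aERKO, 1.57, 2.34, 2.33 and 2.17 in Ex3bERKO, 2.74, 2.03, 0.46 and 1.77 in Ex3abERKO, and 2.74, 2.52, 2.42 and 2.33 in control. Ex3abERKO ranged from the lowest value of all to one about equal to the highest control. The differences of -0.73 ± 0.37 in Ex3aERKO (adjusted p = 0.279), -0.40 in Ex3bERKO (0.856) and -0.75 ± 0.37 in Ex3abERKO (0.165) did not pass. Without Ex3abERKO 1 the last was -1.08 (adjusted p = 0.0342).

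Markers of endothelium, a tissue rich in the general type IV chains, moved beside these genes. Their summed level was 14.8 to 15.8 in Ex3aERKO, 20.6 to 28.3 in Ex3bERKO, 18.0 to 23.2 in Ex3abERKO and 25.5 to 35.2 in control. Of the 10 endothelial markers, 6 fell and 0 rose in Ex3aERKO, none changed in Ex3bERKO, and 5 fell and 0 rose in Ex3abERKO. Markers of surface epithelium ran the other way, with a summed level of 26.5 to 82.0 in Ex3aERKO, 16.5 to 71.4 in Ex3bERKO, 35.3 to 59.0 in Ex3abERKO and 14.8 to 21.5 in control. Of these 6 markers 3 rose in Ex3aERKO, 0 in Ex3bERKO and 2 in Ex3abERKO. Sertoli cell markers, a cell type of the testis, summed to 5.22 to 9.45 in Ex3aERKO, 2.61 to 5.02 in Ex3bERKO, 10.7 to 41.8 in Ex3abERKO and 1.19 to 1.76 in control, and of the 6 markers 3 rose in Ex3aERKO, 2 rose in Ex3bERKO, and 5 rose and 1 fell in Ex3abERKO. All endothelial and surface epithelium markers were well above background on the 16 arrays, as were the Sertoli markers except Dmrt1 (4 arrays). Among all genes and probes, 7.94% changed in Ex3aERKO, 1.03% in Ex3bERKO and 22.3% in Ex3abERKO. The part of these cell types in the collagen results was not tested.

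**Figure D3:**
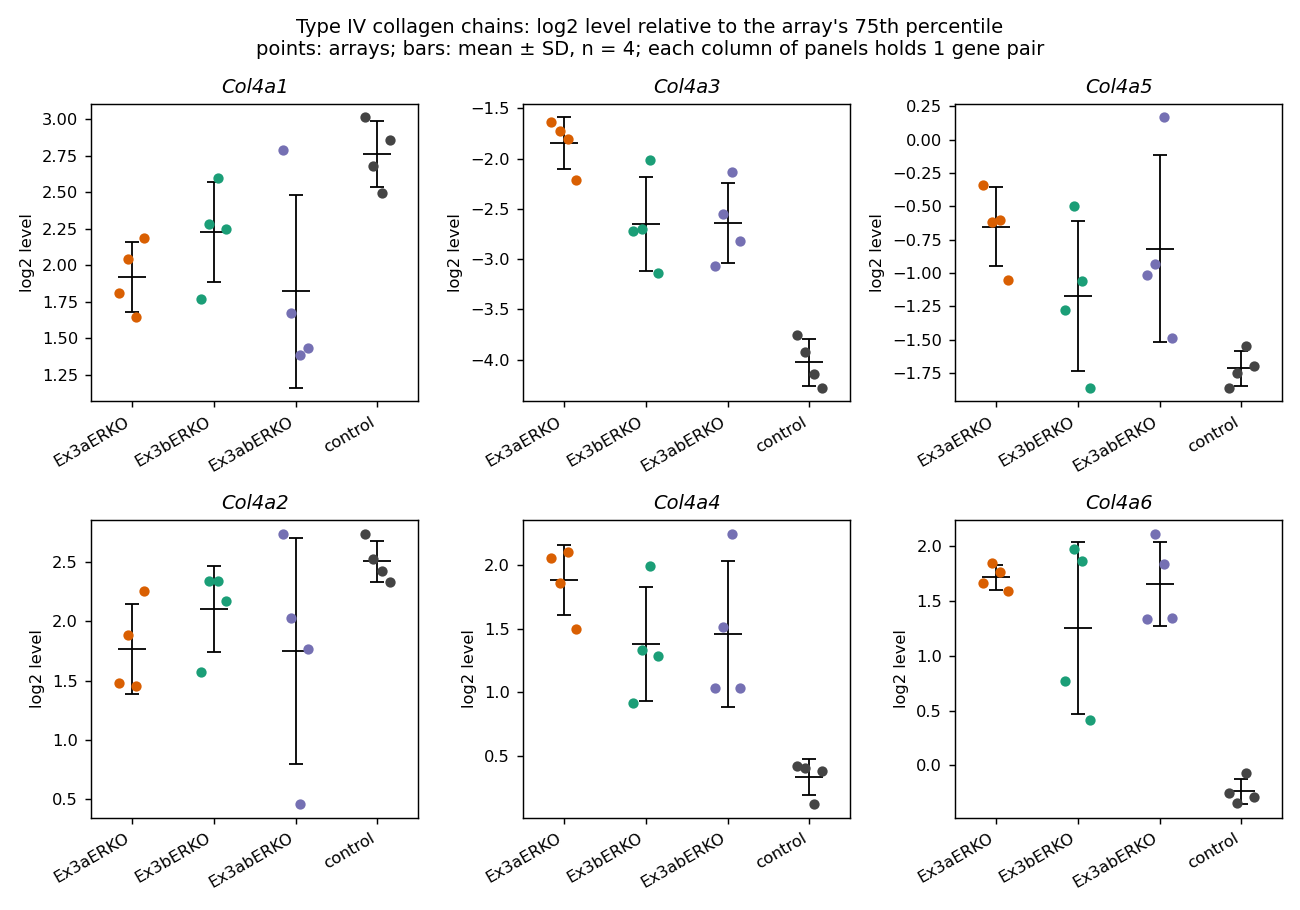
Log2 level of the 6 type IV collagen genes on each array (points), with the mean ± SD of each group of 4 (bars) and each gene pair in a column of panels. Col4a1 and Col4a2 have their highest means in control, whereas Col4a3, Col4a4 and Col4a6 have all 12 knockout arrays above the 4 control arrays.

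Types XV and XVIII are basement-membrane collagens that carry sugar chains, and fragments of both are known to restrain blood vessel growth. Col15a1, at chr4:47326045-47326104 on the plus strand, had levels of 0.20, 0.55, 0.77 and -0.29 in Ex3aERKO, -1.48, 0.79, -1.03 and -1.70 in Ex3bERKO, 0.54, 1.08, 0.99 and 0.77 in Ex3abERKO, and -1.40, -1.32, -1.24 and -0.46 in control. Ex3aERKO and Ex3abERKO lay above control throughout, and in Ex3bERKO only replicate 2 did. Col15a1 rose in Ex3abERKO by 1.95 ± 0.44 (3.86-fold, adjusted p = 0.00552), and the differences were 1.41 ± 0.44 in Ex3aERKO (adjusted p = 0.0623) and 0.25 in Ex3bERKO (0.957). Its other probe gave 1.08 in Ex3abERKO (adjusted p = 0.0559). Col18a1, the source of endostatin, rose in Ex3aERKO by 0.92 ± 0.26 (1.89-fold, adjusted p = 0.0459), with differences of -0.39 in Ex3bERKO (0.749) and 0.67 in Ex3abERKO (0.0821). This call was close to the threshold: it was lost without any single one of 11 arrays, namely control 2, 3 and 4, Ex3aERKO 1, 2 and 3, Ex3bERKO 3 and 4, and Ex3abERKO 1, 2 and 4 (adjusted p = 0.0567 to 0.151).

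Among fibrillar collagens, the chains of type I and type III make up most of the ovarian stroma's fibrils. Col1a1, at chr11:95060800-95060859 on the plus strand, had levels of 3.48, 3.49, 3.23 and 2.65 in Ex3aERKO, 2.76, 3.99, 3.34 and 3.44 in Ex3bERKO, 5.99, 5.09, 4.48 and 4.27 in Ex3abERKO, and 3.86, 3.48, 3.11 and 3.88 in control. The 4 Ex3abERKO arrays were above all others, and the remaining groups overlapped. Col1a1 rose in Ex3abERKO by 1.37 ± 0.36 (2.59-fold, adjusted p = 0.0130), while the differences were -0.37 in Ex3aERKO (adjusted p = 0.658) and -0.20 in Ex3bERKO (0.957). Its other probes gave 0.73 and 0.37 in Ex3abERKO. Without the 3 arrays that stood apart the difference was 1.43, with an adjusted p of 0.0562.

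The partner chain Col1a2, at chr6:4493505-4493564 on the plus strand, had levels of 5.31, 4.86, 4.74 and 4.29 in Ex3aERKO, 4.81, 5.36, 4.95 and 4.86 in Ex3bERKO, 6.60, 5.77, 4.97 and 5.14 in Ex3abERKO, and 4.68, 5.19, 4.43 and 5.11 in control. Ex3abERKO 1 and 2 lay above the controls, and Ex3abERKO 3 and 4 fell among them. The differences were -0.05 in Ex3aERKO (adjusted p = 0.961), 0.14 in Ex3bERKO (0.972) and 0.77 ± 0.32 in Ex3abERKO (0.106). Without Ex3abERKO 3 the last was 0.98 (adjusted p = 0.0399). The difference of Col1a1 exceeded that of Col1a2 by 0.61 in Ex3abERKO (two-sided exact permutation test, p = 0.0571, and 0.143 after adjustment over the 15 chain comparisons).

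Col3a1, whose fibrils mix with those of type I in soft organs, was read at chr1:45585395-45585454, plus strand. Levels of Col3a1 were 4.72, 4.62, 4.69 and 3.51 in Ex3aERKO, 4.30, 5.25, 3.75 and 4.10 in Ex3bERKO, 6.35, 5.14, 5.46 and 4.21 in Ex3abERKO, and 4.53, 4.62, 4.24 and 4.92 in control. Here 3 of the 4 Ex3abERKO arrays were above the controls and replicate 4 was below them. The differences of -0.19 in Ex3aERKO (adjusted p = 0.879), -0.22 in Ex3bERKO (0.961) and 0.71 ± 0.42 in Ex3abERKO (0.258) did not pass.

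The minor fibrillar collagens included both decreases of the class. Col5a3, a chain of the type V collagen that starts fibril assembly, had levels of -3.80, -3.37, -3.81 and -3.24 in Ex3aERKO, -2.26, -2.35, -3.84 and -3.03 in Ex3bERKO, -2.42, -3.07, -4.04 and -3.14 in Ex3abERKO, and -1.93, -2.64, -2.12 and -1.97 in control. Only Ex3aERKO lay wholly below control. Col5a3 (chr9:20639940-20639999, minus strand) fell there by 1.39 ± 0.36 on the log2 scale (2.62-fold lower, adjusted p = 0.0291), with differences of -0.71 in Ex3bERKO (0.573) and -1.0 in Ex3abERKO (0.0608). The call was lost without any single one of control 1, 3 and 4 or Ex3aERKO 1, 2 and 3 (adjusted p = 0.058 to 0.0871), and the other Col5a3 probe gave -0.46. Col27a1, known from cartilage, fell in Ex3abERKO by 1.30 ± 0.19 (2.46-fold lower, adjusted p = 0.000395), and its 4 Ex3abERKO arrays lay between -2.15 and -2.06, against -1.03 to -0.63 in control. The fibrillar genes that did not pass ranged from -1.21 to 0.24 in Ex3aERKO (10 genes), from -0.72 to 1.00 in Ex3bERKO (11 genes) and from -1.0 to 0.77 in Ex3abERKO (9 genes).

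Markers of stromal fibroblasts, the main makers of fibrillar collagen, had a summed level of 93.3 to 190.4 in Ex3aERKO, 131 to 209.6 in Ex3bERKO, 168.8 to 216.9 in Ex3abERKO and 87.8 to 118 in control. Of these 10 markers, 2 rose and 1 fell in Ex3aERKO, none changed in Ex3bERKO, and 5 rose and 1 fell in Ex3abERKO. Macrophage markers summed to 242 to 295.9 in Ex3aERKO, 183.9 to 264.9 in Ex3bERKO, 325.5 to 356.5 in Ex3abERKO and 155.2 to 211.1 in control. Of these 8 markers 2 rose in Ex3aERKO, 0 changed in Ex3bERKO and all 8 rose in Ex3abERKO. The share of all genes and probes that changed was 7.94% in Ex3aERKO, 1.03% in Ex3bERKO and 22.3% in Ex3abERKO. Every marker of both lists was well above background on the 16 arrays, and their part in the collagen results was not tested.

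The increase of both type VIII chains was the largest among the 42 collagens in Ex3abERKO. Type VIII is a short-chain collagen that forms hexagonal networks beneath endothelia and in vessel walls. Col8a1, at chr16:57488371-57488430 on the minus strand, had levels of 2.01, 1.87, 1.92 and 0.23 in Ex3aERKO, 1.33, 1.59, 1.93 and 0.04 in Ex3bERKO, 4.43, 2.81, 3.30 and 3.1 in Ex3abERKO, and -0.24, 0.34, 0.29 and 0.80 in control. Ex3abERKO stood above every other array, and replicate 4 of both single knockouts lay within the control range. Col8a1 rose in Ex3abERKO by 3.11 ± 0.48 (8.63-fold, adjusted p = 0.000481), and the differences were 1.21 ± 0.48 in Ex3aERKO (adjusted p = 0.149) and 0.92 in Ex3bERKO (0.578). Its other probe gave 1.15 in Ex3aERKO, 0.92 in Ex3bERKO and 3.14 in Ex3abERKO.

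Col8a2, the other chain, was read at chr4:125758844-125758903, plus strand. Its levels were 0.29, 0.15, -0.03 and -1.02 in Ex3aERKO, -1.27, 0.13, -0.39 and -1.76 in Ex3bERKO, 0.37, 1.34, 0.99 and 0.72 in Ex3abERKO, and -2.15, -1.88, -2.02 and -1.19 in control. Ex3aERKO and Ex3abERKO lay above control, Ex3abERKO above both single knockouts, and Ex3bERKO overlapped control. Col8a2 rose in Ex3abERKO by 2.67 ± 0.40 (6.35-fold, adjusted p = 0.000413) and in Ex3aERKO by 1.66 ± 0.40 (3.15-fold, adjusted p = 0.0193), and the difference in Ex3bERKO was 0.99 (0.395). The Ex3aERKO call was lost without control 1, control 3 or Ex3aERKO 1, 2 or 3 (adjusted p = 0.055 to 0.0621), and without the 3 arrays that stood apart (0.0749).

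Fibril-associated collagens sit on the surface of fibrils and changed in both directions in Ex3abERKO. Col20a1, whose probe lies at chr2:181518278-181518337 on the plus strand, had levels of -2.06, -2.56, -1.89 and -2.18 in Ex3aERKO, -1.72, -2.12, -1.59 and -0.81 in Ex3bERKO, -2.66, -2.26, -3.15 and -2.63 in Ex3abERKO, and -1.03, -1.62, -0.42 and -0.54 in control. Ex3aERKO and Ex3abERKO lay wholly below control. Col20a1 fell by 1.27 ± 0.31 in Ex3aERKO (2.41-fold lower, adjusted p = 0.0199) and by 1.77 ± 0.31 in Ex3abERKO (3.42-fold lower, adjusted p = 0.00104), with a difference of -0.66 in Ex3bERKO (0.513). The Ex3aERKO call was lost without control 3, control 4 or Ex3aERKO 2 (adjusted p = 0.0646 to 0.0724).

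Col19a1, at chr1:24472914-24472973 on the minus strand, was dim, with levels of -5.85, -6.03, -7.09 and -5.43 in Ex3aERKO, -5.84, -5.93, -5.35 and -5.83 in Ex3bERKO, -6.87, -6.50, -8.74 and -7.71 in Ex3abERKO, and -5.41, -5.83, -5.35 and -6.07 in control. It was well above background on 3, 4, 0 and 4 arrays of these groups, so its Ex3abERKO level is only a bound, which also takes in the lowest measured signal of each array. Col19a1 was at least 2.21-fold lower in Ex3abERKO than in control (adjusted p = 0.008). Its other probe gave 0.53, the opposite direction.

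The remaining changes of this kind were each read in Ex3abERKO against control. Col12a1, a fibril-associated collagen of tendon and of strained tissue, rose by 1.71 ± 0.39 (3.28-fold, adjusted p = 0.00623), and its Ex3abERKO arrays lay between -4.48 and -2.36, against -5.61 to -5.02 in control. Col9a3, a chain of the type IX collagen of cartilage, rose by 0.95 ± 0.30 (adjusted p = 0.0322), and its partner chain Col9a2 fell by 1.11 ± 0.31 (adjusted p = 0.0198), so the chains of type IX did not move together. Col22a1, known from tissue junctions such as those of muscle and tendon, fell by 0.98 ± 0.29 (adjusted p = 0.0245). The Col9a3 call was lost without any single one of control 1, 3 and 4 or Ex3abERKO 1, 2 and 4 (adjusted p = 0.061 to 0.094). Those of Col9a2 and Col22a1 were lost without control 2, control 3 or Ex3abERKO 4 (0.0509 to 0.059), and without control 1, control 3 or Ex3abERKO 2 (0.0646 to 0.0858). Cartilage markers summed to 0.880 to 9.0 in Ex3aERKO, 0.387 to 0.846 in Ex3bERKO, 0.414 to 0.562 in Ex3abERKO and 0.531 to 0.892 in control, and their part in these results was not tested.

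Col26a1, a collagen first described in testis and ovary, was lower in both groups lacking ERα. Its levels at chr5:135712690-135712749, minus strand, were -1.73, -1.64, -2.02 and -2.74 in Ex3aERKO, -0.09, -0.53, 1.00 and 0.87 in Ex3bERKO, -1.26, -1.99, -2.48 and -1.91 in Ex3abERKO, and -0.27, 0.09, -0.33 and -0.83 in control. Every array lacking ERα lay below every array that kept it. Summed levels of oocyte markers split the arrays in the same way, at 1.07 to 4.82 in Ex3aERKO and 3.76 to 6.13 in Ex3abERKO. They were 12.93 to 46.45 in Ex3bERKO and 12.63 to 27.85 in control, and the part of oocytes in this result was not tested. Col26a1 fell by 1.70 ± 0.37 in Ex3aERKO (3.25-fold lower, adjusted p = 0.0106) and by 1.57 ± 0.37 in Ex3abERKO (2.98-fold lower, adjusted p = 0.00684), and the difference in Ex3bERKO was 0.65 (0.647). Between the knockouts it was 5.08-fold lower in Ex3aERKO than in Ex3bERKO (adjusted p = 0.00297) and 4.66-fold lower in Ex3abERKO than in Ex3bERKO (adjusted p = 0.00142). Such a full split was not confined to Col26a1. Col9a2 ran from -2.03 to -1.44 in Ex3aERKO and -2.22 to -1.70 in Ex3abERKO, against -1.15 to 0.60 in Ex3bERKO and -1.25 to -0.51 in control. Col18a1 was higher on every array lacking ERα, by a narrow margin (lowest 2.900 in Ex3aERKO, highest control 2.895).

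Beaded-filament collagen VI, which surrounds cells in most connective tissue, showed a single change. Col6a3 fell by 1.08 ± 0.26 in Ex3aERKO (2.11-fold lower, adjusted p = 0.0190), where its arrays ranged from 0.65 to 1.70, against 1.96 to 2.74 in control. Its partner chains did not pass: Col6a1 differed by 0.43, 0.18 and 0.05 and Col6a2 by 0.56, 0.30 and 0.47 in Ex3aERKO, Ex3bERKO and Ex3abERKO. The Col6a3 call was lost without control 1, control 2 or control 4 (adjusted p = 0.0511 to 0.0539), and its second brightest probe gave -0.09. The other collagens that did not pass ranged from -0.98 to 1.41 in Ex3aERKO (19 genes), from -0.66 to 1.46 in Ex3bERKO (23 genes) and from -0.94 to 0.86 in Ex3abERKO (14 genes).

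**Figure D4:**
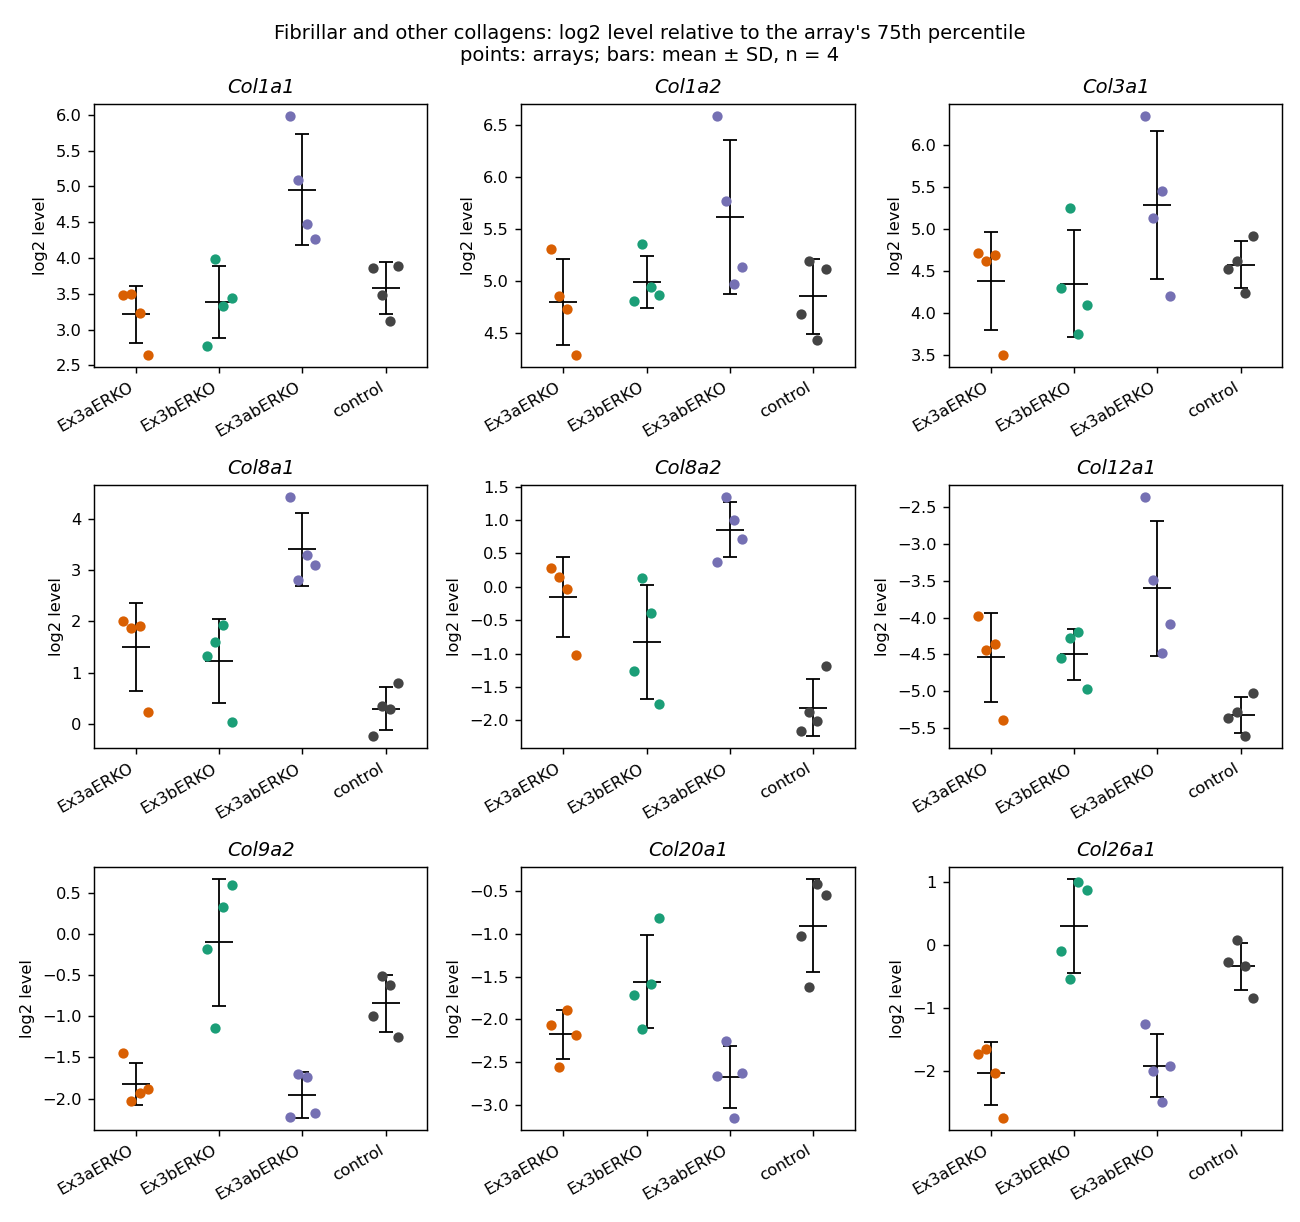
Log2 level of 9 fibrillar and other collagen genes on each array (points), with the mean ± SD of each group of 4 (bars). Col1a1 and Col8a1 have their 4 Ex3abERKO arrays above all others, and Col26a1 is lower on the 8 arrays lacking ERα than on the 8 others.

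The double knockout was also set against each single knockout. Against Ex3aERKO, 8 of the 42 collagens changed (19%), 7 higher and 1 lower in Ex3abERKO, where 7.79% of all genes and probes tested did, 4.45% higher and 3.34% lower. The increases were of Col8a1 (1.90, 3.74-fold, adjusted p = 0.0249), Col1a1 (1.74, 3.34-fold, adjusted p = 0.0096), Col6a3 (1.32, adjusted p = 0.0076), Col9a3 (1.28, adjusted p = 0.0173), Col14a1 (1.27, adjusted p = 0.0374), Col17a1 (1.23, adjusted p = 0.0477) and Col5a1 (1.05, adjusted p = 0.0376). Col14a1 encodes a fibril-associated collagen, Col17a1 the transmembrane collagen of hemidesmosomes, and Col5a1 the main chain of type V. The decrease was of Col27a1 (-0.74, adjusted p = 0.0310). No basement-membrane collagen changed between these groups, the 8 ranging from -0.80 to 0.54, and without the 3 arrays that stood apart 2 collagens changed. With median scaling 5 were higher and 0 lower. With slide as a fixed block 7 changed, 6 higher and 1 lower, 5 of them among the 8, and the calls of Col8a1 (0.0595), Col17a1 (0.0631) and Col27a1 (0.0551) were lost. Without the 2 arrays high in luteal markers 7 of the 8 changed, and Col14a1 did not (0.0588). Of all genes and probes, 1915 changed in the main fit, 859 without the 3 arrays and 1736 with median scaling. With the slide block 1906 of all did, and without the 2 luteal arrays 1662. The Col6a3 call was lost in 2 of 33 alternatives run. Over these 33 its difference was as low as 0.05 and its adjusted p in limma as high as 0.966. The Col8a1 call was lost without Ex3aERKO 4 or Ex3abERKO 1 (adjusted p = 0.075 and 0.0666), and that of Col9a3 without Ex3aERKO 4 (0.0593). The other losses were of Col14a1 without any array of Ex3aERKO or without Ex3abERKO 1 or 2 (0.0510 to 0.105), of Col5a1 without Ex3aERKO 1, 3 or 4 or Ex3abERKO 1 or 2 (0.0621 to 0.119), of Col27a1 without Ex3aERKO 1 or 4 or Ex3abERKO 1, 2 or 4 (0.0566 to 0.0905), and of Col17a1 without any of 12 arrays, all but control 1, control 4, Ex3aERKO 2 and Ex3bERKO 3 (0.0508 to 0.141).

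Against Ex3bERKO, 12 changed (28.6%), 6 higher and 6 lower in Ex3abERKO, where 16.7% of all did, 8.27% higher and 8.4% lower. Higher were Col8a1 (2.19, 4.55-fold, adjusted p = 0.00694), Col15a1 (1.70, adjusted p = 0.0165), Col8a2 (1.68, adjusted p = 0.0113), Col1a1 (1.57, 2.97-fold, adjusted p = 0.00876), Col18a1 (1.06, adjusted p = 0.0141) and Col11a2 (0.68, adjusted p = 0.0178), a minor fibrillar chain. Lower were Col26a1, Col9a2 (-1.86, 3.62-fold lower, adjusted p = 0.00161), Col19a1 (at least 2.11-fold lower, adjusted p = 0.0142), Col20a1 (-1.12, adjusted p = 0.0228), Col22a1 (-0.99, adjusted p = 0.0295) and Col24a1 (-0.92, adjusted p = 0.0402), a fibrillar chain known from bone. With slide as a block 6 changed, 2 higher and 4 lower, and without the 3 arrays that stood apart 8 changed, 4 higher and 4 lower. Without the 2 arrays high in luteal markers 10 of the 12 changed, and Col22a1 (0.0907) and Col24a1 (0.103) did not. Over all genes and probes, 4100 changed in the main fit and 2155 with slide as a block. Without the 3 arrays 2480 of all did, and without the 2 luteal arrays 3905. Calls were lost without Ex3bERKO 4 for Col11a2, Col15a1, Col20a1 and Col24a1, without Ex3bERKO 1 for Col15a1, Col22a1 and Col24a1, and without Ex3bERKO 2 or 3 for Col22a1 and Col24a1 (adjusted p = 0.0506 to 0.108 over all losses). They were also lost without Ex3abERKO 1 or 2 for Col22a1, without Ex3abERKO 3 for Col20a1, without Ex3abERKO 4 for Col11a2, and without Ex3abERKO 2, Ex3abERKO 4, control 1 or control 3 for Col24a1.

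Between the single knockouts 3 changed (7.14%), where 2.34% of all did, 0.651% higher and 1.69% lower. Col18a1 was higher in Ex3aERKO (1.31, 2.47-fold, adjusted p = 0.0155), and Col26a1 and Col9a2 (-1.72, 3.29-fold lower, adjusted p = 0.00788) were lower. Col18a1 levels were 3.16, 3.53, 3.94 and 2.90 in Ex3aERKO and 1.54, 2.81, 1.97 and 1.98 in Ex3bERKO, with 3.17, 3.04, 3.14 and 3.20 in Ex3abERKO and 2.90, 2.37, 2.24 and 2.35 in control. All Ex3aERKO arrays were above all Ex3bERKO arrays, and Ex3abERKO was tightly grouped between 3.04 and 3.20. The Col18a1 call was lost without Ex3aERKO 2 or 3 or Ex3bERKO 1 or 4 (adjusted p = 0.0525 to 0.0606).

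An interaction term asked whether losing ERβ changed a collagen by a different amount when ERα was already absent, as (Ex3abERKO minus Ex3aERKO) minus (Ex3bERKO minus control). It passed for 3 of the 42 collagens (7.14%), 1 above 0 and 2 below it (0 and 1 with median scaling, 0 and 2 with quantile scaling), where 3.59% of all genes and probes passed, 1.83% above 0 and 1.76% below 0. Col4a3 had an interaction of -2.18 ± 0.35 (adjusted p = 0.00409): its level with both receptors lost was below the sum of the single differences. Col4a4 had -1.48 ± 0.39 (adjusted p = 0.0493), and Col1a1 had 1.94 ± 0.50 (adjusted p = 0.0478), in the opposite direction. The last pair of calls lay just under the threshold, and without the 2 arrays high in luteal markers both were lost (adjusted p = 0.113 for Col4a4 and 0.0785 for Col1a1). Each was lost without any single one of 13 of the 16 arrays, at an adjusted p of 0.067 to 0.101 for Col4a4 and of 0.0537 to 0.104 for Col1a1. The Col4a4 call was kept only when the array left out was Ex3aERKO 4, Ex3bERKO 1 or Ex3abERKO 3, and the Col1a1 call only when it was Ex3bERKO 2, Ex3abERKO 3 or Ex3abERKO 4.

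Collagen chains are folded, modified, trimmed and cross-linked by dedicated enzymes and helpers. Of 29 measured genes for these steps, 0 rose and 1 fell in Ex3aERKO, 0 changed in Ex3bERKO, and 5 rose and 1 fell in Ex3abERKO, with medians of -0.04, -0.00 and 0.07. Those are 3.45% in Ex3aERKO, where 7.94% of all genes and probes changed, and 20.7% in Ex3abERKO, where 22.3% of all did. In Ex3abERKO, Lox, which cross-links collagen fibrils, rose by 1.30 ± 0.45 (2.46-fold, adjusted p = 0.0498), and Adamts2, which trims the ends of procollagen, rose by 1.21 ± 0.40 (2.31-fold, adjusted p = 0.0404). P3h4, a partner of the enzymes that modify collagen lysines, fell by 1.22 ± 0.23 in Ex3abERKO (adjusted p = 0.0017) and by 0.82 ± 0.23 in Ex3aERKO.

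Of 16 collagen receptors and enzymes of collagen breakdown, 2 rose and 4 fell in Ex3aERKO, 0 changed in Ex3bERKO, and 5 rose and 1 fell in Ex3abERKO, with medians of 0.08, -0.05 and 0.43. Those are 37.5% in Ex3aERKO and 37.5% in Ex3abERKO, against 7.94% and 22.3% of all genes and probes. In Ex3aERKO, Fap, a protease of activated fibroblasts, fell by 1.65 ± 0.26 (adjusted p = 0.00158), and Mmp13, an interstitial collagenase, fell by 1.49 ± 0.32 (adjusted p = 0.0109). Ctsk, a lysosomal protease that digests collagen, rose by 1.60 ± 0.37 in Ex3aERKO (adjusted p = 0.0149) and by 2.20 ± 0.37 in Ex3abERKO (adjusted p = 0.000865). Mmp8, the collagenase of neutrophils, rose by 2.95 ± 0.57 in Ex3abERKO (7.73-fold, adjusted p = 0.0023). Ddr1, a collagen receptor of epithelial cells, rose there by 1.42 ± 0.19 (2.68-fold, adjusted p = 0.000213).

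Of 14 measured partners of type IV collagen in basement membranes, 2 rose in Ex3aERKO, 0 changed in Ex3bERKO, and 2 rose and 2 fell in Ex3abERKO, with medians of 0.00, 0.13 and -0.12. Those are 14.3% in Ex3aERKO and 28.6% in Ex3abERKO, where 7.94% and 22.3% of all changed. Lamb3, a laminin chain of epithelial basement membranes, rose by 1.99 ± 0.33 in Ex3aERKO (3.98-fold, adjusted p = 0.00214) and by 2.08 ± 0.33 in Ex3abERKO (4.22-fold, adjusted p = 0.000562). Lama2, a laminin chain known from muscle, rose by 0.99 ± 0.24 in Ex3aERKO (adjusted p = 0.0195). Lama4, a laminin chain of vessel walls, fell by 1.68 ± 0.26 in Ex3abERKO (3.21-fold lower, adjusted p = 0.000526).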

How the data were processed

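Whole-ovary RNA of 16 samples was hybridised in Cy3 to one-colour Agilent arrays, 1 sample per array, in 4 groups of 4. The deposited values are the processed signal intensity of each of 43379 spots, made with Agilent Feature Extraction 9.5 per the submitters' processing notes and 9.5.3.1 per the file headers. The authors' series table held the same processed signal intensity for 100% of probes (within 0.0001), linear and not centred. Columns of values that were not used numbered 0.

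From there, control spots and outlier spots (54 to 106 per array) were left out and spots of a probe averaged. The signal was divided by the array's 75th percentile, floored and taken to log2. Probe names came from the accession for 22951 of 41174 probes, from the file's symbol for 6659 and from an older symbol for 3109, and 8455 had no gene name. Each gene was read by the brightest of all its probes. The filter then kept a gene if that probe reached well above background on 4 or more of 16 arrays. This gave 24587 genes or unnamed probes. Of all 41174 probes, 36227 reached that mark. limma 3.58.1 (R 4.3.3) was fitted once over all 4 groups with 12 residual degrees of freedom, and p-values were adjusted by Benjamini-Hochberg. Slide did not enter this fit. Slides, given in the file headers, numbered 4. Slides 1 and 4 held all groups. Slide 2 held Ex3abERKO 1 and 2 but no Ex3bERKO array, and slide 3 held Ex3bERKO 1 and 4 but no Ex3abERKO array. Deviations from group means correlated at a median r of 0.28 between arrays of different groups on the same slide (22 pairs). On different slides the median r was -0.07 (74 pairs). With slide as a fixed block, 12, 2 and 16 collagens changed in Ex3aERKO, Ex3bERKO and Ex3abERKO against control. Over all genes and probes 2157, 178 and 5298 did. The number of arrays limits the precision.

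The collagen genes, their classes and the marker and partner lists were chosen with earlier results of these data known. Genes named with a value for each array were the main matrix chains Col1a1, Col1a2, Col3a1, Col4a1 and Col4a2, and the 6 called collagens with the largest difference in each comparison with control; every other called collagen is named with its difference, and Col4a5 and Col18a1 are given per array as partners or between the knockouts. Of each partner list, the 3 called genes with the largest difference are named, apart from 1 result that is not reported here.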

Additional observations from a re-analysis of the deposited data

Results flagged for a closer look

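Among the 15 collagen genes given with a value for each array, 4 of 60 groups had an array farther from its neighbours than Dixon's test for 4 values allows; chance flags about 1 in 20 groups. Ex3aERKO 4 was the lowest of its group for Col3a1 (3.51, the others 4.62 to 4.72) and for Col8a1 (0.23, the others 1.87 to 2.01). Ex3bERKO 3 was the highest of its group for Col19a1 (-5.35, the others -5.93 to -5.83). Control 3 was the lowest of its group for Col4a4 (0.12, the others 0.38 to 0.42).

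The interaction term in limma, for whether losing ERβ acted differently with and without ERα, passed for Col4a3 (-2.18), Col4a4 (-1.48) and Col1a1 (1.94). That is 7.14% of the collagens, against 3.59% of all genes and probes. The calls of Col4a4 and Col1a1 were each lost without any single one of 13 arrays. With the second brightest probe the Col4a4 interaction was 0.0225.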

How the results depend on the processing

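Counts of changed collagens depended on the settings, as did counts over all genes and probes, and the cause was not tested. In Ex3aERKO against control, 1951 of all changed in the main fit, 5140 with array weights and 561 without the 3 arrays that stood apart. The count over all was 1861 with only the groups compared and 1657 with the second brightest probe. In Ex3abERKO 5482 of all changed in the main fit, 8503 with array weights and 3124 with normexp background correction. In Ex3aERKO against control the count of 9 was 19 with array weights, 14 with only the groups compared in the fit, 4 without the 3 arrays that stood apart and 5 with the second brightest probe. In Ex3bERKO the count of 2 was 1 with normexp background correction, 1 with normexp on 15 arrays, 1 with the mean of all probes, 1 with the second brightest probe, 0 with only the groups compared and 0 without the 3 arrays. Of all genes and probes 253 changed there in the main fit, and 151, 171, 247, 210, 86 and 63 with these settings in turn. In Ex3abERKO the count of 16 was 10 with normexp and 25 with array weights. Between Ex3abERKO and Ex3aERKO the count of 8 was 3 with normexp, 5 with median scaling, 3 with only the groups compared, 2 without the 3 arrays and 4 with the second brightest probe. The total over all genes and probes was 1915 in the main fit, and 747, 1736, 621, 859 and 1678 with these settings. Between Ex3abERKO and Ex3bERKO the count of 12 was 7 with normexp, 6 with slide as a fixed block and 7 with only the groups compared. That total was 4100 in the main fit, and 1935, 2155 and 2479 with these settings. Between Ex3aERKO and Ex3bERKO the count of 3 was 5 with array weights, 5 with trend and robust, 0 with only the groups compared and 1 without the 3 arrays. Here the total over all was 575 in the main fit, and 1495, 637, 118 and 236 with these settings. The interaction count of 3 was 0 with normexp, 1 with median scaling, 5 with the filter on all 16 arrays, 1 with no filter, 6 with slide as a random block, 8 with array weights, 5 with trend and robust and 1 without the 3 arrays. Its total over all was 883 in the main fit, 336 with normexp and 791 with median scaling. It was 908 of 20585 with the filter on all 16 arrays and 847 of 27960 with no filter. With the last 4 settings it was 1004, 1723, 1018 and 252. Without the 2 arrays high in luteal markers, also chosen after seeing the data, the count was 0 for Ex3bERKO against control, 5 for Ex3aERKO against Ex3bERKO and 1 for the interaction. Totals over all genes and probes were 106, 762 and 466. Leaving out each array in turn gave 5 to 13, 0 to 3, 13 to 18, 2 to 9, 8 to 14, 2 to 5 and 1 to 4 in these 7 comparisons. Totals over all then ran from 1137 to 2629, 113 to 369 and 3900 to 6354 against control. They ran from 1132 to 2305, 2410 to 5088, 283 to 869 and 512 to 1350 in the remaining comparisons. Replicate numbers did not pair the arrays (correlations of -0.29 to 0.43), and with a replicate block the counts were 9, 2, 17, 8, 11, 3 and 3. That block gave totals over all of 1797, 216, 5200, 1611, 3717, 484 and 710.

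Medians moved as follows, against control unless said. Basement-membrane collagens gave 0.46 in Ex3aERKO and 0.25 in Ex3abERKO with the second brightest probe. The other collagens gave, in Ex3aERKO, -0.86 with normexp, -0.10 with normexp on 15 arrays, 0.0779 with the filter on all 16 arrays or only members above background on all 16, 0.0855 with the mean of probes and -0.0703 with the second brightest probe. In Ex3bERKO they gave -0.12 with normexp, and the basement-membrane collagens gave -0.0666 without the 2 luteal arrays. In Ex3abERKO they gave -0.0606 with normexp, 0.26 with the filter on all 16 arrays or only such members, 0.23 with array weights, -0.10 without the 3 arrays and -0.0429 without Ex3abERKO 2. Against Ex3aERKO, Ex3abERKO gave -0.11 without the 3 arrays and -0.20 without Ex3abERKO 2. Against Ex3bERKO it gave 0.12 with normexp, 0.12 with normexp on 15 arrays, 0.24 with the filter on all 16 arrays or only such members, 0.0942 with array weights and 0.18 without Ex3abERKO 3. Leaving out each array in turn, the other collagens ranged from -0.41 to -0.0700, from 0.0269 to 0.36 and from -0.0429 to 0.32 against control, from -0.20 to 0.18 against Ex3aERKO and from -0.28 to 0.18 against Ex3bERKO. Normexp moved the median of all genes in the comparisons with control to -0.34, -0.27 and -0.36; its fit failed on control 1 (5th percentile -1.17, against -4.86 to -4.29 on the others), and leaving that array out was an alternative chosen after seeing the data.

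Direction changed for Col1a2 in Ex3aERKO with normexp (0.0680), quantile scaling (0.0483), array weights (0.12), without the 3 arrays (0.0119), and without control 2, control 4 or Ex3aERKO 4 (range without single arrays -0.22 to 0.12). For Col3a1 in Ex3aERKO it changed with array weights (0.0621) and without Ex3aERKO 4 (range -0.30 to 0.10). In Ex3bERKO it changed for Col1a1 without Ex3bERKO 1 (range -0.41 to 0.00421) and for Col1a2 without control 3 (range -0.00128 to 0.25) and without the 2 luteal arrays (-0.0383). In Ex3abERKO Col9a3 gave -0.0153 with normexp. The second brightest probe reversed Col4a6 (-0.13 in Ex3aERKO, -0.10 in Ex3abERKO), Col19a1 (0.53 against control, 0.32 against Ex3bERKO), Col5a1 (-0.0188 against Ex3aERKO), Col11a2 (-0.23 against Ex3bERKO) and the Col4a4 interaction (0.0225). Single-gene results kept direction and side of the threshold in 1860 of the alternatives run and lost the call in 286. They gained a call in 7 and changed direction in 20. The 1860 include results that were not called in the main fit, such as those of Col3a1, which had no call to lose.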

Other observations

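Markers of some other cells of the ovary also differed from control, which in whole ovaries does not separate cell number from RNA per cell. Beside the counts below, 7.94% of all genes and probes changed in Ex3aERKO, 1.03% in Ex3bERKO and 22.3% in Ex3abERKO. Of 7 measured oocyte markers, 7 fell in Ex3aERKO, 0 changed in Ex3bERKO and 6 fell in Ex3abERKO. Of 5 luteal markers 2 fell in Ex3aERKO, 1 in Ex3bERKO and 4 in Ex3abERKO, and of 4 theca markers 2 rose and 2 fell in Ex3aERKO, 1 rose and 1 fell in Ex3bERKO, and 1 rose and 2 fell in Ex3abERKO. Granulosa markers, 8 in all, gave 1 higher and 1 lower in Ex3aERKO, 0 in Ex3bERKO and 3 lower in Ex3abERKO. None of the 6 smooth muscle markers passed in any knockout. Of 5 cartilage markers 1 rose in Ex3aERKO and 0 changed in the other knockouts. The 5 adipose markers summed to 10.9 to 42.3 in Ex3aERKO, 11.5 to 37.0 in Ex3bERKO, 48.8 to 96.5 in Ex3abERKO and 13.0 to 27.7 in control, with 1 lower in Ex3aERKO and 1 higher in Ex3abERKO. The part of any of these cell types in the collagen results was not tested.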
